A study of Mus musculus with 17 samples.

Results

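The genes described here are 48 genes of the cell division cycle, chosen by name as known genes of its phases, of which 47 had a probe set annotated to that gene alone among the 18194 genes measured. Earlier results of these data were known when the genes were chosen. Ccnb1 (cyclin B1) was not analysed here. Spinal cords of female C57BL/6 mice (C57BL/6J in the study's methods) labelled as 8 weeks old were taken as a 4.5 mm wide segment and hybridized 1 mouse to 1 array: 6 naïve mice without treatment, 5 mice with targeted experimental autoimmune encephalomyelitis (EAE) given an isotype control antibody, and 6 mice with targeted EAE given an anti-RGMa antibody. In targeted EAE, mice are immunized with a myelin peptide (MOG) in complete adjuvant and, 3 weeks later, receive TNF-α and IFN-γ by injection into the cord after a laminectomy at Th8, with pertussis toxin at 0 and 2 days post injection (DPI), so the lesion forms at a known site. Both EAE groups had this induction, and both had 10 mg/kg of antibody 2 times a week from 9 DPI (humanized anti-RGMa, or palivizumab as the isotype control), with the cord taken at 14 DPI. The labels do not say at which of these steps, which together lasted over 3 weeks, the mice were 8 weeks old. Naïve mice had neither immunization, surgery nor antibody, so immunization, surgery, cytokines, toxin and isotype antibody cannot be told apart in a comparison with them.

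A cell enters the cycle through D-type and E-type cyclins, which turn on cyclin-dependent kinases and release E2F factors to switch on the genes of DNA replication. Cyclin A, cyclin B and Cdk1 then drive G2 and mitosis, the spindle assembly checkpoint holds chromosomes until all are attached, and the midzone of the spindle directs the cleavage of the cell. Adult cord holds few dividing cells, mainly oligodendrocyte precursors, while lymphocytes, microglia, macrophages, astrocytes and vascular cells can divide in an inflamed lesion. Because whole tissue was measured, fewer dividing cells and less RNA in each dividing cell cannot be told apart.

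As a check of the tissue, 5 Hox genes of trunk level had a mean log2 signal of 8.94 to 9.97 in every array, whereas 3 forebrain genes had 2.66 to 5.14. Arrays differed in what else the tissue held. The mean of 10 skeletal muscle genes was 9.35, 13.3 and 9.53 in isotype control replicates 3, 4 and 5, against at most 8.17 in any other array, and 7 genes of regenerating muscle, which itself holds dividing precursors, stood at 7.76 and 8.56 in isotype control replicates 3 and 4, against 3.30 to 5.15 elsewhere. Genes of the dorsal root ganglion were highest in anti-RGMa replicate 1 (9.31, against 5.34 to 7.72 in the other arrays). No detection calls were used, so the 95th percentile of 44 olfactory receptor probe sets, genes the cord is not known to use, served as the background level: 6.16, 6.01 and 6.07 on the log2 scale for the naïve, isotype control and anti-RGMa groups. A gene is said to be not above background in a group where its median log2 signal lay below that level.

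Most cell cycle genes of S phase, G2 and mitosis were called higher in targeted EAE cord than in naïve cord, and a part of them was called lower with anti-RGMa antibody than with the isotype control. Averaged over the 47 genes, the log2 signal of the 6 naïve arrays was 6.52 ± 0.15 (mean ± SD). It was 8.41 ± 0.25 over the 5 isotype control arrays and 7.97 ± 0.41 over the 6 anti-RGMa arrays. Of the isotype control arrays, replicate 1 stood at 8.81 and the others at 8.16, 8.31, 8.30 and 8.45. In the anti-RGMa group, replicates 1, 2 and 3 stood at 7.86, 7.45 and 7.59, below every isotype control array, whereas replicates 4, 5 and 6 stood at 8.47, 8.11 and 8.34, within or close to the isotype control range.

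**Figure D1:**
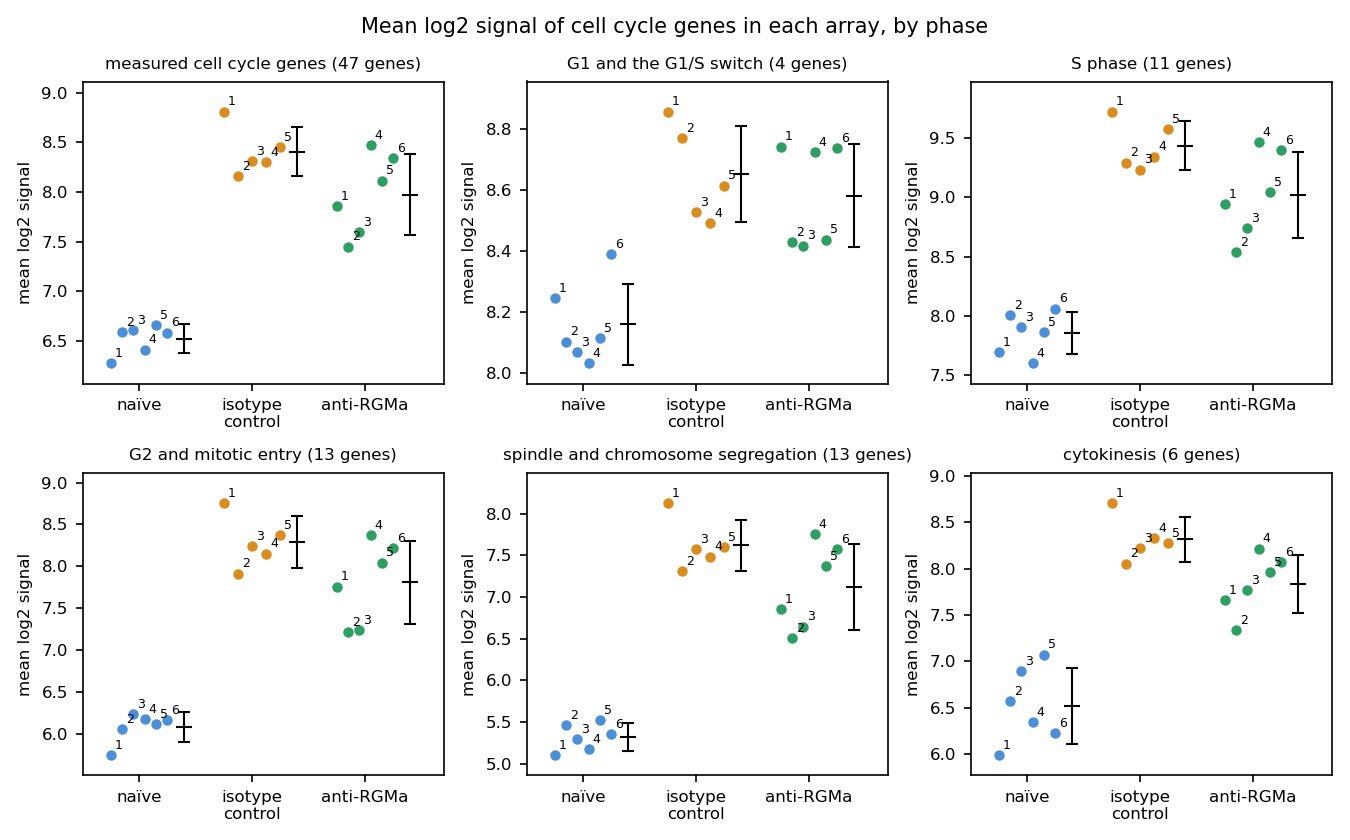
Mean log2 signal (vertical axis) in each of the 17 arrays for the 47 measured cell cycle genes and for each phase, with the replicate number at each point and, at the right of each group, its mean with SD. The axes of the panels differ and do not start at 0. Over the 47 genes the naïve arrays sit between 6.27 and 6.65, the isotype control arrays between 8.16 and 8.81 and the anti-RGMa arrays between 7.45 and 8.47.

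At the study's threshold, an unadjusted p under 0.05 from limma with a fold change over 1.5, 35 of the 47 genes were higher and 1 was lower in the isotype control group than in naïve mice, where 18% of all 18194 genes were called higher and 15.5% lower. At a Benjamini-Hochberg adjusted p under 0.05 over all genes, 39 were higher (24.6% of all genes) and 2 lower (4945 of all 18194 genes), these being Ccne1 and Anln. The 5 isotype control arrays lay above all 6 naïve arrays for 34 of the 47, which held for 18.3% of all genes. The median log2 difference was 1.97 over the 47 genes and -0.04 over all genes. In naïve mice 22 of the 47 genes were not above the background level, and 21 of these were called higher, as were 14 of the 25 that were above it. With such genes at the bound that the background level sets, the median over 46 genes was 1.24, Tyms being left out because it was not above background in the isotype control group either.

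The anti-RGMa group was also called higher than naïve mice for 31 of the 47 genes and lower for 0 (all genes: 14% higher, 9.12% lower), with a median of 1.37. At an adjusted p under 0.05, 34 of the 47 were higher than naïve mice and 2 lower, against 3696 and 3925 of all 18194 genes. The log2 ratio of the 3' to the 5' control probe sets of Gapdh, a sign of RNA quality or labelling, moved with these comparisons. It lay between -0.72 and -0.31 in naïve mice, below every EAE array in 5 of 6, between -0.53 and -0.12 in isotype control arrays and between -0.42 and -0.22 in anti-RGMa arrays, and its part in the differences from naïve mice was not tested. This comparison and the previous one share the naïve arrays, so their likeness is not independent.

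Between the antibody groups, 11 of the 47 genes were called lower in the anti-RGMa group and 0 higher, where 2.72% of all genes were called lower and 1.22% higher. The 11 were Uhrf1, Rrm2 and Mcm5 of S phase, Melk, Cks1b and Ccna2 of G2 and mitotic entry, Cdc20, Ttk and Cdca8 of the spindle, and Prc1 and Ect2 of cytokinesis. All 11 were among the genes called higher in the isotype control group than in naïve mice, a comparison that shares the isotype control arrays. None of the 47 passed an adjusted p under 0.05 over all genes in limma (the lowest was 0.209), and 1 of all 18194 genes did. An unadjusted p under 0.05 in limma was reached by 16 of the 47 and by 2870 of all genes. The log2 difference was below 0 for 42 of the 47 genes and above 0 for 5, with a median of -0.46, against 0.01 over all genes. Of the 47, 8 (Ccna2, Cenpe, Cks1b, Hmmr, Mcm5, Mki67, Rrm2 and Tpx2) are among the genes the study displayed over the 3 groups. Their direction is not independent evidence in this comparison or in that with naïve mice. Between the antibody groups 4 of these 8 were called lower, as were 7 of the other 39, which were measured on the same arrays. In the isotype control group 7 of the 8 and 28 of the 39 were called higher than in naïve mice.

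The count rested on single arrays. Each of the 17 arrays left out in turn gave between 4 and 17 genes called lower. The share of all genes called lower at this threshold is not given for these fits or for the other settings. The lowest counts came without anti-RGMa replicate 3 (4), 2 (5) or 1 (7) and without isotype control replicate 1 (6) or 5 (7), and the highest without anti-RGMa replicate 4 (17). Rrm2, Cdc20, Prc1 and Ect2 were called lower whichever array was left out. Among the 12 or 13 other settings in which a gene could be tested, Cdc20 and Prc1 were called lower in each, Rrm2, Uhrf1, Cks1b and Ect2 in all but the macrophage covariate, and Mcm5 and Cdca8 in all but 3. Melk lost its call in 4 of 12, Ttk in 5 of 12 and Ccna2 in 7 of 12. Without anti-RGMa replicate 6, an adjusted p under 0.05 was reached by 9 of the 47 genes that were lower and by 1 (Anln) that was higher, along with 509 genes lower and 994 higher among all genes. With isotype control replicates 3 and 4 left out together, the arrays with high regenerating muscle genes, 13 were called lower.

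Markers of macrophages and monocytes moved with the difference. The array means of 17 such markers ran from 6.35 to 6.86 over the naïve, from 10.7 to 11.9 over the isotype control and from 10.2 to 11.6 over the anti-RGMa arrays. Between the antibody groups 3 of the 17 (Msr1, Mrc1 and Cd14) were called lower and 16 had a difference below 0. With this mean of each array as a covariate in a fit of the antibody groups, 2 of the 47 cell cycle genes, Cdc20 and Prc1, were called lower and the median difference was -0.18. The share of all genes called lower with this covariate is not given here. In the main fit it was 2.72%. Of 9 T cell markers 1 (Cd4) was called lower, with array means of 7.85 to 8.81 in the isotype control group and 7.72 to 8.85 in the anti-RGMa group. Of 9 neutrophil markers 0 were called (0 also at an unadjusted p under 0.05 in limma). 

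Markers of connective tissue, muscle and vessels moved as well. Of 8 fibroblast and meningeal genes 7 were called lower in the anti-RGMa group, with array means of 8.77 to 9.71 in naïve mice, 10.6 to 13.3 with the isotype control and 9.23 to 10.7 with anti-RGMa antibody, highest in isotype control replicates 3 and 4. The regenerating muscle list had 4 of 7 genes called lower and the skeletal muscle list 3 of 10. Of 9 endothelial genes 3 were called lower (array means 7.84 to 8.20, 8.69 to 9.19 and 8.33 to 8.79 in the naïve, isotype control and anti-RGMa groups), as were 3 of 8 genes of pericytes and smooth muscle (7.92 to 8.26, 8.38 to 9.52 and 8.29 to 8.56). With the skeletal muscle mean as a covariate, 8 of the 47 cell cycle genes were called lower. All 12 neuron genes had a difference above 0 between the antibody groups and 2 (Syn1 and Stmn2) were called higher, where 11 of the 12 had been called lower in the isotype control group than in naïve mice. Their array means were 12.2 to 12.4 in naïve mice, 10.7 to 11.6 with the isotype control and 10.9 to 11.9 with anti-RGMa antibody. Of 8 genes of B cells and plasma cells 7 had a difference below 0 and 1 (Mzb1) was called lower, with array means of 5.68 to 6.26, 8.06 to 9.08 and 7.58 to 8.42. Of 6 genes of the dorsal root ganglion 3 were called higher with anti-RGMa antibody, and 1 of 4 Schwann cell genes lower. No gene was called between the antibody groups among 6 of oligodendrocyte precursors, 6 of homeostatic microglia, 7 of astrocytes and 7 of oligodendrocytes. Median differences of these lists were 0.02, -0.04, 0.17 and 0.23, with 1, 2, 3 and 4 genes at an unadjusted p under 0.05 in limma. The part of other cell types in the difference was not tested beyond these values.

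**Figure D2:**
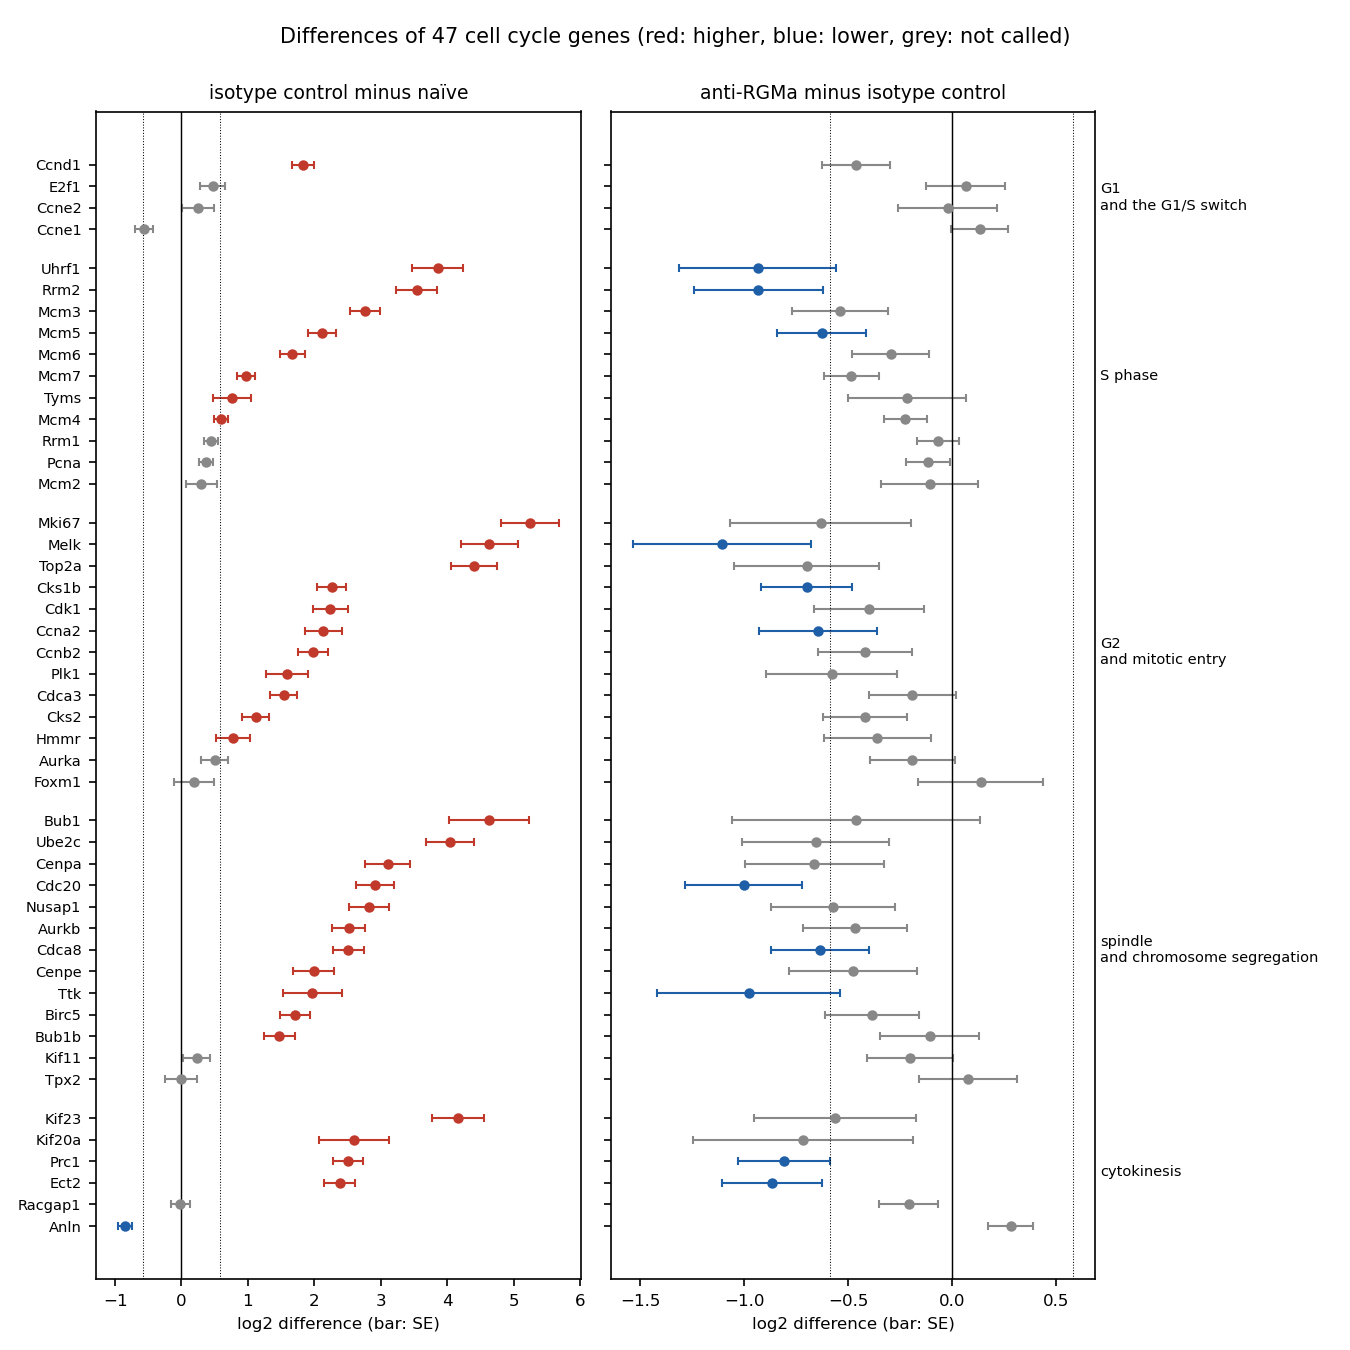
Log2 difference of each of the 47 genes (points, with the standard error from limma as bars) between the isotype control group and naïve mice at left and between the anti-RGMa group and the isotype control group at right, ordered by phase and then by the difference at left. The panels have different horizontal scales, dotted lines mark the 1.5-fold change, and red and blue mark the 35 genes called higher and the 1 called lower at left and the 11 called lower at right. The left-hand differences of the 22 genes not above background in naïve mice are estimates from dim signals.

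The 4 genes of G1 and the G1/S switch had the lowest median difference from naïve mice of the phases (0.36), but 14 other G1/S cyclins, kinases and E2F factors had a median of 1.08, with 9 called higher. Ccnd1 (cyclin D1, which activates Cdk4 and Cdk6 on mitogen signals) had a lowest, median and highest log2 signal of 9.37, 9.67 and 9.99 in naïve mice, of 11.9, 11.5, 11.1, 11.4 and 11.5 in isotype control replicates 1 to 5, and of 10.8, 10.9 and 11.6 in the anti-RGMa group. All EAE arrays were above all naïve arrays, with a log2 difference of 1.83 (SE 0.16, adjusted p = 2.9e-07 from limma) for the isotype control group, the only gene of 4 called in this phase. Between the antibody groups its difference was -0.46 (SE 0.16, unadjusted p = 0.0125 from limma), short of the fold threshold, with 5 of 6 anti-RGMa arrays below the lowest isotype control array. Ccne1 (cyclin E1, partner of Cdk2 at the start of S phase) went the other way. It had 8.59, 8.86 and 9.22 in naïve mice, 8.23, 8.62, 8.33, 8.23 and 8.10 in the isotype control arrays and 7.95, 8.49 and 8.71 with anti-RGMa antibody. Naïve and isotype control arrays overlapped only through isotype control replicate 2, and the difference was -0.57 (SE 0.14, adjusted p = 0.00254 from limma). Ccne2 (cyclin E2) and E2f1 (an activator of replication genes) had differences of 0.25 and 0.47, neither past the fold threshold. No gene of the phase was called between the antibody groups (1 at an unadjusted p under 0.05 in limma), where the median difference was 0.02.

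In S phase, 8 of 11 genes were called higher in the isotype control group than in naïve mice (median log2 difference 0.97, or 1.32 over 10 genes with those not above background in naïve mice at their bound and Tyms left out) and 3 of 11 lower in the anti-RGMa than in the isotype control group (median -0.29). Textbook E2F sites lie in the promoters of replication genes. For that reason, stretches before an annotated start of Mcm5 and Uhrf1 are shown, the 2 genes called lower here that hold a searched octamer. They are RefSeq sequence of build GRCm38.p6 on the plus strand, chr8:75109349-75109444 for Mcm5 and chr17:56304123-56304218 for Uhrf1, with E2F octamers and CCAAT pentamers in capitals. In Mcm5, 2 octamers overlap, TTTCGCGC as written and TTTGGCGC on the opposite strand. For Uhrf1, the stretch lies before a further start within the gene. The window of its start at chr17:56303337 held CCAAT but no searched octamer.
Mcm5: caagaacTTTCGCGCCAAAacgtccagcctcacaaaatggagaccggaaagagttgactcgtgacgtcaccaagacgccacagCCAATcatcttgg
Uhrf1: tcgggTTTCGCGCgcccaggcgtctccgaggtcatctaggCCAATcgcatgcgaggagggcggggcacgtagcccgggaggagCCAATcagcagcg

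Mcm5, a subunit of the MCM helicase that unwinds replication origins, had 7.25, 7.36 and 7.62 as its lowest, median and highest log2 signal in naïve mice, 9.64, 9.60, 9.33, 9.13 and 9.87 in the isotype control arrays and 8.13, 8.89 and 9.57 with anti-RGMa antibody. All EAE arrays were above all naïve arrays, and 4 of 6 anti-RGMa arrays were below the lowest isotype control array. The differences were 2.11 (SE 0.21, adjusted p = 1.1e-06 from limma) for the isotype control group against naïve mice and -0.63 (SE 0.21, adjusted p = 0.225) for the anti-RGMa against the isotype control group. Uhrf1, which carries DNA methylation over to the new strand, was below background in naïve mice (3.13, 4.68 and 5.35) and stood at 8.75, 8.10, 8.14, 8.20 and 8.95 in the isotype control arrays, at least 5.08-fold higher. In the anti-RGMa group it had 6.58, 7.49 and 8.19, with 4 of 6 arrays below the lowest isotype control array and a log2 difference of -0.93 (SE 0.38, adjusted p = 0.278 from limma).

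Rrm2, the small subunit of ribonucleotide reductase, which makes deoxynucleotides, rose from 6.30, 6.38 and 6.73 in naïve mice to 10.9, 9.91, 9.60, 9.63 and 9.96 in the isotype control arrays, a log2 difference of 3.54 (SE 0.31, adjusted p = 2.46e-07 from limma). It had 8.24, 9.07 and 9.94 in the anti-RGMa group, a difference of -0.93 (SE 0.31, adjusted p = 0.225) from the isotype control group, with 4 of 6 arrays below its lowest array. The large subunit Rrm1 differed by 0.44 and -0.07 in the same comparisons, called in neither. A further Rrm1 probe set of like brightness in naïve mice (8.94 against 8.90) was lower in the isotype control group, by -0.28. The other MCM subunits Mcm3, Mcm4, Mcm6 and Mcm7 were called higher in the isotype control group, with log2 differences of 2.76, 0.59, 1.67 and 0.97, and were not called between the antibody groups (-0.54, -0.22, -0.29 and -0.48). Mcm4 kept its first call in 6 of 11 other settings and in 12 of 17 fits with an array left out, and its further probe set differed by 1.25. The further probe sets of Mcm7 differed from naïve mice by 0.40, 0.36 and 0.47, and its call was lost with the mean of the probe sets. Mcm2, the helicase subunit that moved least on the probe sets used, had 8.28, 8.47 and 9.36 in naïve mice, 8.98, 8.62, 8.60, 9.77 and 8.75 in the isotype control arrays and 8.32, 8.91 and 9.11 with anti-RGMa antibody, and the 3 groups overlapped. Its further probe set differed from naïve mice by 1.15 in the isotype control group, and Mcm2 was called higher there with the mean of the probe sets. Pcna, the sliding clamp of DNA polymerase, had a difference of 0.37, past an adjusted p under 0.05 but short of the fold threshold. Tyms (thymidylate synthase) was called higher at 0.76, but 5 of 6 naïve and 3 of 5 isotype control arrays were below background.

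Genes of G2 and mitotic entry were called higher in the isotype control group for 11 of 13, with a median log2 difference of 1.97, and lower in the anti-RGMa group for 3 of 13, with a median of -0.42. As 7 of the 13 were not above background in naïve mice, the first median is 1.33 with these at their bound. Mki67 (the proliferation antigen Ki-67, present in cycling cells) had the largest difference of the 47 genes. It lay below background in all naïve arrays (2.87, 4.66 and 5.43 as lowest, median and highest) and at 10.4, 9.25, 9.51, 9.70 and 9.76 in the isotype control arrays, at least 12.4-fold higher. In the anti-RGMa group it had 8.42, 9.06 and 9.93, with 3 of 6 arrays below the lowest isotype control array and a log2 difference of -0.63 (SE 0.44, 95% interval -1.56 to 0.29, unadjusted p = 0.167 from limma), which was not called. Top2a, the topoisomerase that untangles sister chromatids, was at least 10.8-fold higher in the isotype control group than in naïve mice and differed by -0.70 between the antibody groups, not called.

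Cks1b, a small subunit of cyclin-dependent kinases, had 8.00, 8.14 and 8.41 in naïve mice, 10.7, 10.2, 10.3, 10.3 and 10.6 in the isotype control arrays and 9.02, 9.79 and 10.4 with anti-RGMa antibody. All EAE arrays were above all naïve arrays and 4 of 6 anti-RGMa arrays below the lowest isotype control array, with differences of 2.26 (SE 0.22, adjusted p = 6.33e-07 from limma) and -0.70 (SE 0.22, adjusted p = 0.223). Its paralog Cks2 differed by 1.12 and -0.42, called in the first comparison alone. Ccna2 (cyclin A2, which drives S phase and G2) had 6.41, 6.69 and 7.42, then 9.33, 8.81, 8.85, 8.72 and 9.00, and then 7.28, 8.47 and 9.02 in naïve, isotype control and anti-RGMa mice. Anti-RGMa replicates 4 and 5 lay within the isotype control range, replicate 6 (8.66) just below it and replicate 3 within the naïve range. The difference between the antibody groups was -0.64 (SE 0.28, adjusted p = 0.298 from limma), and this call was lost with the antibody groups fitted alone, array weights, the replicate block, the mean of probe sets, an offset of 64 and either covariate. Melk, a mitotic kinase, was below background in 6 of 6 naïve, 0 of 5 isotype control and 3 of 6 anti-RGMa arrays. Its isotype control arrays stood at 7.40, 6.10, 6.87, 6.53 and 6.82 and its anti-RGMa arrays at 4.06, 6.05 and 6.64 as lowest, median and highest, a difference of -1.11 (SE 0.43, adjusted p = 0.263 from limma) that rests on dim signals.

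Of the others of this phase, Cdk1 (the mitotic kinase) was at least 4.31-fold, Ccnb2 (cyclin B2) at least 3.06-fold, Cdca3 at least 2.51-fold and Plk1 (polo-like kinase 1) at least 2.37-fold higher in the isotype control group than in naïve mice. Hmmr, a receptor for hyaluronan that also binds the spindle, was called higher at 0.78. None of these 5 was called between the antibody groups (-0.40, -0.42, -0.19, -0.58 and -0.36). Aurka (aurora kinase A) had a difference of 0.50 from naïve mice and did not pass the fold threshold. Foxm1, the factor that switches on mitotic genes, had 6.34, 7.37 and 8.26 in naïve mice, 7.23, 7.71, 7.72, 6.96 and 8.09 in the isotype control arrays and 7.44, 7.70 and 8.03 with anti-RGMa antibody, and the groups overlapped.

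Genes of the spindle and of chromosome segregation were called higher in the isotype control group for 11 of 13 (median log2 difference 2.51) and lower in the anti-RGMa group for 3 of 13 (median -0.48). As 10 of the 13 were not above background in naïve mice, the first median is 1.32 with these at their bound. Cdc20, which activates the anaphase-promoting complex once the checkpoint is satisfied, was the one gene of the 47 whose anti-RGMa arrays all lay below all isotype control arrays, which held for 0.566% of all genes. It had 6.04, 6.50 and 6.84 in naïve mice, 9.87, 9.31, 9.17, 9.30 and 9.20 in the isotype control arrays and 7.22, 8.52 and 9.13 with anti-RGMa antibody. Anti-RGMa replicate 4 (9.13) came within a small distance of the lowest isotype control array. The differences were 2.91 (SE 0.28, adjusted p = 6.87e-07 from limma) from naïve mice and -1.0 (SE 0.28, adjusted p = 0.209) between the antibody groups.

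Ttk (the checkpoint kinase MPS1) had 3.00, 4.60 and 5.66 in naïve mice, 7.09, 6.50, 6.10, 6.24 and 6.52 in the isotype control arrays and 4.71, 5.42 and 6.69 with anti-RGMa antibody. It was below background in 5 of 6 anti-RGMa arrays, 5 of which also lay below the lowest isotype control array, and the difference was -0.98 (SE 0.44, adjusted p = 0.308 from limma). Cdca8 (borealin, of the chromosomal passenger complex) had 5.79, 6.10 and 6.43 in naïve mice, 9.14, 8.45, 8.61, 8.40 and 8.62 in the isotype control arrays and 7.46, 7.88 and 8.70 with anti-RGMa antibody. Its isotype control level was at least 5.51-fold that of naïve mice, and the antibody groups differed by -0.63 (SE 0.24, adjusted p = 0.249 from limma), with 4 of 6 anti-RGMa arrays below the lowest isotype control array. The other measured subunits of that complex, Aurkb (aurora kinase B) and Birc5 (survivin), were called higher than naïve and differed by -0.47 and -0.38 between the antibody groups, neither called.

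Among the rest of the spindle genes, the isotype control group was at least 5.52-fold above naïve mice for Ube2c (the ubiquitin-conjugating enzyme of the anaphase-promoting complex), 4.79-fold for Cenpa (the histone variant of the centromere), 3.89-fold for Nusap1 (which bundles microtubules), 2.49-fold for Bub1b (a checkpoint protein) and 1.88-fold for Cenpe (a kinetochore motor). Their differences between the antibody groups were -0.66, -0.66, -0.57, -0.11 and -0.48, none called. Bub1, a checkpoint kinase, was at 0.52, 2.06 and 3.97 in naïve mice, all below background, and at 7.65, 6.34, 6.49, 7.26 and 6.64 in the isotype control arrays, at least 1.73-fold higher. The anti-RGMa arrays of Bub1 (5.12, 6.41 and 7.40) overlapped those of the isotype control group. Tpx2, which activates aurora kinase A on the spindle, had 5.87, 6.94 and 7.26, then 6.75, 6.45, 6.82, 6.72 and 6.73, and then 6.58, 6.72 and 7.12 on the probe set used, without a separation of the groups. Kif11, the motor that separates the spindle poles, differed by 0.23 from naïve mice and was not called either.

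In cytokinesis 4 of 6 genes were called higher and 1 lower in the isotype control group (median 2.44), and 2 of 6 lower in the anti-RGMa group (median -0.64). With the 3 genes not above background in naïve mice at their bound, the first median is 0.73. Prc1, which bundles the microtubules of the spindle midzone, had 5.70, 6.24 and 6.60 in naïve mice, 8.92, 8.56, 8.30, 9.00 and 8.63 in the isotype control arrays and 7.20, 7.87 and 8.47 with anti-RGMa antibody. All EAE arrays were above all naïve arrays, and 5 of 6 anti-RGMa arrays were below the lowest isotype control array, with differences of 2.50 (SE 0.22, adjusted p = 2.59e-07 from limma) and -0.81 (SE 0.22, adjusted p = 0.209). Ect2, the exchange factor that activates RhoA at the cleavage furrow, had 4.49, 5.46 and 5.51, then 8.41, 7.33, 7.26, 7.41 and 7.72, and then 6.36, 6.67 and 7.34. It was at least 2.91-fold higher in the isotype control group than in naïve mice, and 5 of 6 anti-RGMa arrays were below the lowest isotype control array, a difference of -0.87 (SE 0.24, adjusted p = 0.209 from limma).

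Kif23 and Kif20a, motors of the midzone, were at least 2.35-fold and 1.17-fold higher in the isotype control group than in naïve mice, where both were below background. Kif23 had 2.15, 3.02 and 4.38 in naïve mice, 7.99, 7.02, 7.10, 7.55 and 6.94 in the isotype control arrays and 5.81, 6.87 and 7.50 with anti-RGMa antibody. The anti-RGMa and isotype control arrays of Kif23 overlapped, and its difference of -0.56 was not called. Racgap1, the partner of Kif23 in centralspindlin, differed by -0.02 from naïve mice and by -0.21 between the antibody groups, not called.

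Anln was the one gene called lower in the isotype control group than in naïve mice. It encodes anillin, a scaffold of the cleavage furrow that myelinating oligodendrocytes also express, where it binds septins. It had 12.5, 12.6 and 12.7 in naïve mice, 11.7, 12.0, 11.6, 11.6 and 11.8 in the isotype control arrays and 11.6, 12.1 and 12.3 with anti-RGMa antibody. All EAE arrays were below all naïve arrays, with a difference of -0.85 (SE 0.11, adjusted p = 1.04e-05 from limma) in the isotype control group. It was higher in the anti-RGMa than in the isotype control group by 0.28 (SE 0.11, unadjusted p = 0.0185 from limma), short of the fold threshold. Oligodendrocyte marker genes had array means of 13.0 to 13.2 in naïve mice, 12.8 to 13.1 in the isotype control group and 12.9 to 13.2 in the anti-RGMa group. Of these 7 genes, 6 were below naïve mice in the isotype control group (median difference -0.23). Between the antibody groups 6 had a difference above 0 (median 0.23), with 0 called. Their part in the values of Anln was not tested.

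**Figure D3:**
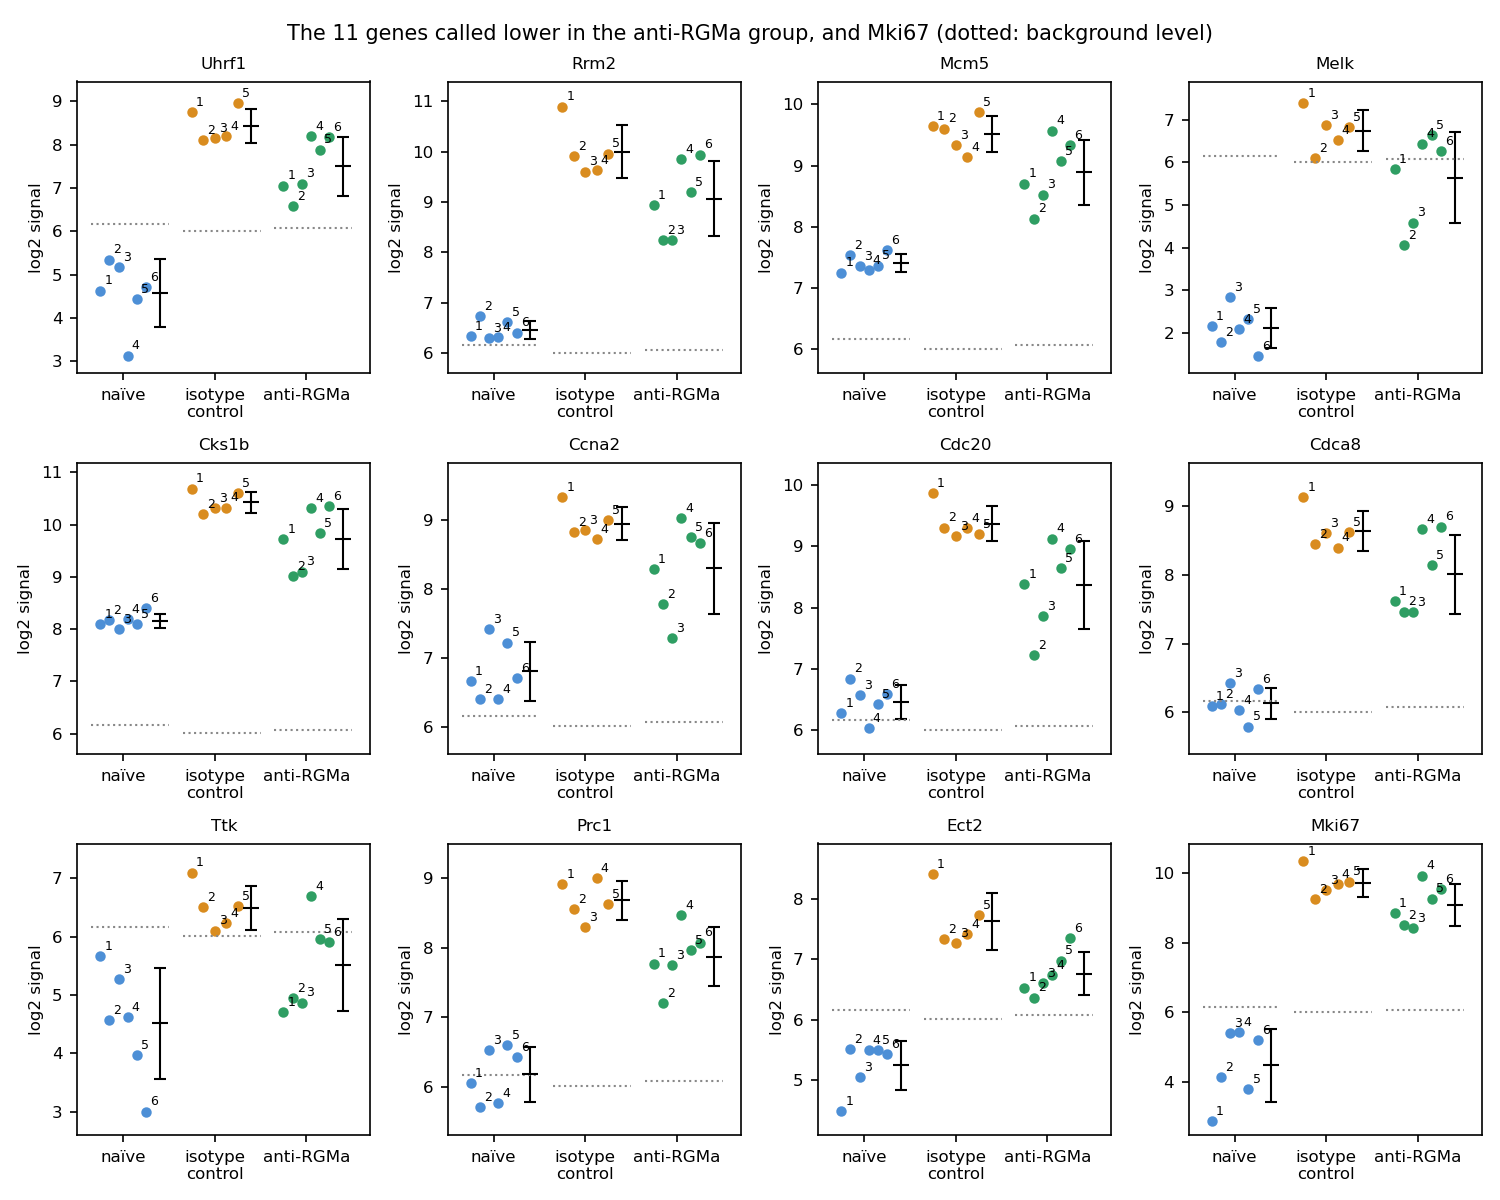
Log2 signal (vertical axis) in each array for the 11 genes called lower in the anti-RGMa than in the isotype control group, and for Mki67, which was not called, with replicate numbers at the points and, at the right of each group, its mean with SD. Dotted lines mark the background level of each group (6.16, 6.01 and 6.07), and the axes differ between panels. In the panel of Cdc20 the 6 anti-RGMa arrays lie between 7.22 and 9.13, below the lowest isotype control array, and in the other panels the antibody groups overlap.

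G2/M genes are known for a promoter element, the cell cycle genes homology region (CHR), often a short distance after CCAAT boxes. CHR was searched as TTTGAA or TTCGAA (the latter reads the same on both strands), the CCAAT box as CCAAT, and E2F sites as TTTCGCGC, TTTGGCGC, TTTCCCGC, TTTGGCGG or TTTGCCGC, on both strands of RefSeq windows from 250 bases before to 50 bases after each annotated start (build GRCm38.p6). None of these strings contains another, though E2F octamers on opposite strands can overlap, as in Mcm5. A window was given for 40 of the 48 genes, and a gene with several windows counted as holding a motif found in any. CHR was held by 24 of the 40 genes (60%), against 21.7% of 27025 genes with a window and 17.5% of the 14453 of these measured on the array. CCAAT was held by 33 (82.5%, against 41.1%), both by 23 (57.5%, against 8.61%) and an E2F octamer by 7 (17.5%, against 3.18%). Among the genes measured on the array these shares were 42.0%, 7.05% and 4.59%. The other cell cycle genes described below shared these motifs. Of the 128 with a window, 46.9% held CHR, 61.7% CCAAT, 33.6% both and 25% an E2F octamer.

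The motifs were spread unevenly over the phases. CHR was held by 2 of 10 genes of S phase, 9 of 12 of G2 and mitotic entry, 8 of 11 of the spindle and 5 of 5 of cytokinesis. The E2F octamers were held by 5 of 10 genes of S phase (Mcm3, Mcm5, Mcm6, Mcm7 and Uhrf1), 2 of 12 of G2 and mitotic entry (Cdk1 and Melk) and none of the spindle or cytokinesis genes. Neither of 2 genes of G1 with a window held any of the 3. A match is a description of letters, not a shown binding site, and no factor was measured at these promoters.

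The stretches of 5 genes are shown because CHR and CCAAT letters lie close together before the annotated start in the called genes Cks1b, Cdc20 and Prc1, and in Mki67 and Ube2c, among the genes furthest above naïve cord. CHR and CCAAT letters, read on either strand, are in capitals, and each stretch is written 5′ to 3′ in the direction of the gene: Cks1b chr3:89418292-89418386 (minus strand), Mki67 chr7:135716464-135716574 (minus), Ube2c chr2:164769834-164769928 (plus), Cdc20 chr4:118437344-118437403 (minus) and Prc1 chr7:80294406-80294475 (plus).
Cks1b: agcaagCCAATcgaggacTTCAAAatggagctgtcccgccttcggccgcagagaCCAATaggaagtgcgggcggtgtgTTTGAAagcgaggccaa
Mki67: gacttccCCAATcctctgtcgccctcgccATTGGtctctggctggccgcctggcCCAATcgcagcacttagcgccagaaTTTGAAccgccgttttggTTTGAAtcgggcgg
Ube2c: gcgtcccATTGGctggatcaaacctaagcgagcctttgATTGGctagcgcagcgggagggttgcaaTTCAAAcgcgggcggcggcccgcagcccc
Cdc20: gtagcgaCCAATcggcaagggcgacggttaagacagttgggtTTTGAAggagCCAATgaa
Prc1: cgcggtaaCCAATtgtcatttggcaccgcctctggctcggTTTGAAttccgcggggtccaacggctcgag
The CHR letters nearest the start lay at -18 to -13 in Cdc20, at -17 to -12 in Cks1b, which holds others at -77 to -72 on the opposite strand, and at -30 to -25 in Prc1, counting -1 as the base just before the start of the window shown.

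**Figure D4:**
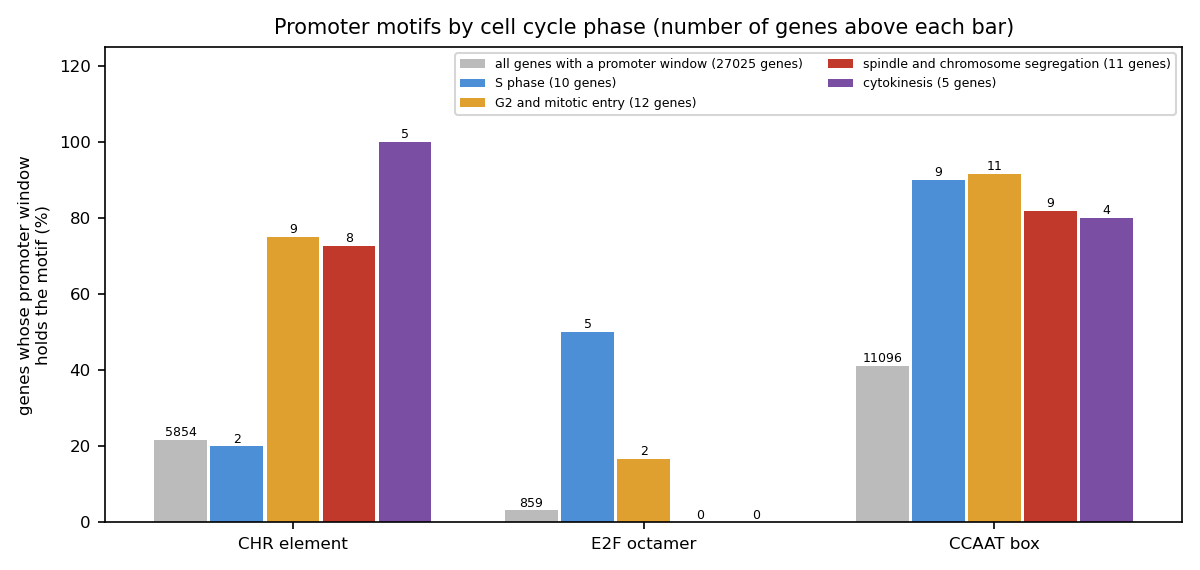
Share of genes (vertical axis, percent) whose promoter window holds a CHR element, an E2F octamer or a CCAAT box, for all 27025 genes with a window and for the cell cycle genes of 4 phases, with the number of genes above each bar. The CHR bar rises from 20% in S phase to 75% in G2 and mitotic entry, while the E2F bar is at 50% in S phase and at 0 for the spindle and cytokinesis genes.

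A gene on this array can have several probe sets, and the one with the highest mean signal was used. The 47 genes had 112 probe sets, of which 65 were further ones, and 25 of these were not above background in naïve and isotype control mice. Of the 40 left, 36 had the sign of the probe set used between the isotype control group and naïve mice, and 35 had it between the antibody groups. Whatever the sign of the probe set used, 37 of the 40 were lower in the anti-RGMa than in the isotype control group. Probe sets of Tpx2 disagreed. The one used had means of 6.70, 6.69 and 6.77 in the naïve, isotype control and anti-RGMa groups and a further one 6.57, 6.57 and 6.55, whereas the other further ones had 5.61, 7.59 and 6.95, and 5.14, 6.71 and 6.24. For Kif11, the further probe sets differed by 1.92 and 1.85 between the isotype control group and naïve mice, where the one used differed by 0.23, and for Mcm2 the values were 1.15 and 0.30. For Anln, the further probe set was also lower in EAE, with means of 10.6, 9.10 and 9.58. For Cdc20 the further probe set above background showed smaller differences (0.95 and -0.48) than the one used (2.91 and -1.0), and for Prc1 larger ones (3.09 and -1.10).

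**Figure D5:**
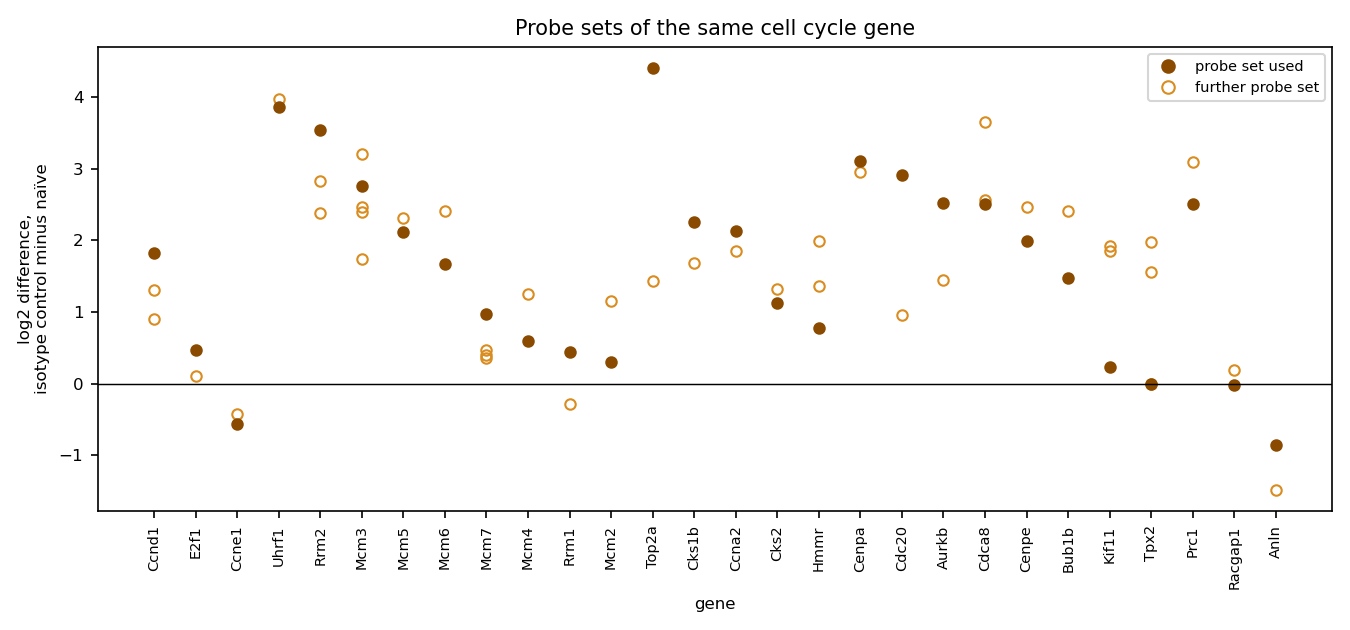
Log2 difference between the isotype control group and naïve mice (vertical axis) for the probe set used of each gene (filled) and for its further probe sets above background in at least 1 of these groups (open), for the genes that have such further ones. For Kif11 the filled point lies at 0.23 and the open ones at 1.85 and 1.92, for Tpx2 1 open point lies under the filled one near 0 and 2 lie at 1.56 and 1.97, and for Anln both points lie below 0.

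Of 166 other cell cycle genes, 154 were measured and 83 were called higher and 4 lower in the isotype control group than in naïve mice, with a median log2 difference of 0.78. Between the antibody groups 9 of the 154 were called lower and 0 higher, 128 had a difference below 0 and the median was -0.29. The 9 were E2f8 (an E2F repressor, -1.39), Fbxo5 (which inhibits the anaphase-promoting complex, -0.59), the centromere genes Cenpf (-0.72) and Cenpi (-1.13), Spc25 (of the kinetochore, -0.70), the motor Kif15 (-1.22), Ckap2 (-0.62), Aspm (of the spindle poles, -0.72) and Ska3 (of the kinetochore, -0.81). The 4 called lower in the isotype control group than in naïve mice were Cdc7, Spag5, Zwint and Cit.

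By list, the gene furthest from naïve mice was E2f8 (3.48) among other G1/S genes, Rbl1 (a pocket protein, 1.76) among CDK inhibitors and pocket proteins, Btg1 (2.56) among quiescence genes, Tk1 (thymidine kinase, 3.84) among replication genes, Pbk (a mitotic kinase, 3.78) among G2/M genes and Ska1 (4.87) among kinetochore and spindle genes. Lists of genes that hold the cycle back or act in quiescence also had members called higher in the isotype control group than in naïve mice, 6 of 11 CDK inhibitors and pocket proteins and 4 of 11 quiescence genes. Neither list had a gene called between the antibody groups (1 and 3 at an unadjusted p under 0.05 and 0 at an adjusted p under 0.05 in limma), with medians of -0.18 and -0.24. Of 35 other genes of origin licensing and replication, 12 were called higher in the isotype control group than in naïve mice. Between the antibody groups, 0 of the 35 differed at the study's threshold (6 at an unadjusted p under 0.05 and 0 at an adjusted p under 0.05 in limma).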

How the data were processed

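Total RNA was labelled and hybridized to a whole-genome mouse Affymetrix array by the authors, who summarized each array with MAS 5.0 and global scaling. Among tools, MAS5 and affy appear in the submitters' processing notes. The deposited values are linear signal intensities of 45101 probe sets (the mean after trimming 2% at each end was 500 in every array), with no detection calls used here. Values were compared on a log2 scale with no offset and no filter. Of the probe sets, 34958 carry 1 gene, 932 several and 9211 none (unnamed here). For each of 18194 genes the probe set with the highest mean was used. Groups came from the treatment labels. One limma 3.58.1 fit (lmFit, eBayes, R 4.3.3) covered the 3 groups over all genes, at the study's threshold (unadjusted p under 0.05, fold over 1.5) and at a Benjamini-Hochberg adjusted p under 0.05. The fit was tested on simulated data. Folds given as "at least" compare the group mean with the higher, per naïve array, of the gene's own log2 signal and the 95th percentile of olfactory receptor probe sets. The number of arrays limits the precision, and no label says that same-numbered mice belong together. Some genes are given with the value of each isotype control array and the lowest, median and highest value of the naïve and anti-RGMa groups. These are the genes called between the antibody groups and, per phase, those with the highest and the lowest (signed) log2 difference of the isotype control group from naïve mice. Of the other cell cycle genes, those called between the antibody groups and the furthest from naïve mice per list are named, and Cdc7, Spag5, Zwint and Cit were added after their values were seen. The genes and lists were chosen with earlier results of these data known. Alternatives covered scaling, offset, a brightness filter, probe set choice, fit samples, variance trend, weights, a replicate block, covariates and each array left out. Leaving out isotype control replicates 3 and 4 together was chosen after seeing the data.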

Additional observations from a re-analysis of the deposited data

Results flagged for a closer look

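In groups of 5 or 6 arrays, 4 single values lay further from their group than Dixon's critical value allows, out of 144 groups looked at, where chance gives about 1 in 20. Rrm2 was highest in isotype control replicate 1 (10.9, with 9.96 as the nearest value), as were Cenpa (9.14, nearest 8.20) and Cdc20 (9.87, nearest 9.31). That array was the highest of the isotype control group for 31 of the 47 cell cycle genes, against 23.4% of all genes, and had the highest mean of macrophage markers (11.9). Tpx2 was lowest in isotype control replicate 2 (6.45, nearest 6.72).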

How the results depend on the processing

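Leaving out each array in turn gave 34 to 36 genes called higher and 1 to 2 called lower in the isotype control group than in naïve mice, 0 to 1 called lower in the anti-RGMa group than in naïve mice, and 4 to 17 called lower between the antibody groups, where 0 to 9 were lower and 0 to 1 higher at an adjusted p under 0.05. Median and quantile scaling each gave 2 genes called lower in the isotype control group than in naïve mice and 11 between the antibody groups. Median scaling moved the median of all genes to -0.18 in the comparison of the isotype control group with naïve mice and to -0.13 for the anti-RGMa group. With median scaling, and with the mean of the probe sets, 1 gene was called lower in the anti-RGMa group than in naïve mice. Between the antibody groups, an offset of 64 gave 7 called lower, the genes of above-median brightness 3 of the 13 left, and the macrophage covariate 2, all among the 11 of the report but 1 (Top2a, with the offset).

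With an offset of 16, the median difference from naïve mice fell to 1.60 over the 47 genes, 1.93 for spindle and 1.79 for cytokinesis genes with the isotype control, and to 1.11 for cytokinesis with anti-RGMa antibody. With an offset of 64, these were 1.19 over the 47 genes, 1.23 for G2, 1.22 for spindle and 1.10 for cytokinesis with the isotype control, and 0.84, 0.84, 0.93 and 0.62 with anti-RGMa antibody. An offset shrinks the differences of dim genes by construction. Among genes of above-median brightness, 8 were called higher and 10 at an adjusted p under 0.05 with the isotype control (6 and 10 with anti-RGMa antibody), and the medians were 0.97 over the genes left and 0.63 for G1 with the isotype control, 0.49 and 1.13 for the genes left and for G2 with anti-RGMa antibody, and -0.16 for G1 between the antibody groups. The cytokinesis medians reversed there (-0.85, -0.57 and 0.28) because Anln alone was left. With the mean of the probe sets, the medians were 0.18 for G1, 1.26 for S phase and 1.76 for spindle genes with the isotype control, and 0.13 for G1 and 1.02 for S phase in the anti-RGMa group. In that setting Foxm1, Kif11, Mcm2 and Tpx2 were also called higher in the isotype control group than in naïve mice. Cdca3 and Mcm7 lost that call.

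With the replicate number as a block, 14 genes were called lower between the antibody groups, 9 of them shared with the 11 of the report. Same-numbered arrays did not deviate together (correlations of -0.064 to 0.071), so the numbers were not taken to pair the mice. Depth has no equivalent here: for the 22 genes not above background in naïve mice the size of the change is known only as a bound.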
